A study of Mus musculus with 18 samples.

Results

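The epidermal differentiation complex is a cluster of genes for proteins of the cornified layer of skin, and its expression was followed here in mouse thymic epithelial cells. The members were chosen by gene symbol alone: every symbol starting with Sprr or Lce, together with Ivl, Lor, Flg, Flg2, Hrnr, Rptn, Tchh, Tchhl1 and Crct1. The rule found 41 genes among the 23063 rows of each expression table, and Flg is not analysed here. All 41 lay on chromosome 3 between bases 92080271 and 93471980 of the mm10 build, a stretch of 1.39 Mb that held 49 rows in all. RNA was sequenced from cells sorted by flow cytometry out of digested thymi of mice aged 6 to 8 weeks. The sorted populations were cortical thymic epithelial cells (cTEC) and 2 medullary populations, mTEClo and mTEChi. Each population was taken from mice with a wild-type genotype (WT) or an Aire knockout (KO), with 3 libraries in each of the 6 groups and 18 libraries in all. The labels give the same strain, B6.129S2-Airetm1.1Doi/J, for WT and KO samples, and they do not say which surface protein separated lo from hi. They also do not say whether the 3 libraries of a group came from separate mice, so the p-values below measure only the spread between libraries, which may be technical.

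The cornified envelope is a protein shell that keratinocytes build under their membrane at the end of differentiation. Involucrin, loricrin, the small proline-rich (SPRR) proteins and the late cornified envelope (LCE) proteins are its building blocks, and transglutaminases cross-link them. Filaggrin-type proteins, which carry an S100-like calcium-binding end fused to long repeats, organise keratin filaments in the same layer or in the hair follicle. Medullary thymic epithelial cells are known for expressing genes of other tissues, skin genes among them, so that developing T cells meet those proteins in the thymus. Aire is a nuclear protein that many of these tissue genes need for expression in mTEC.

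Library depth ranged from 4.54 to 18.1 gigabases aligned to genes, and both extremes were WT mTEClo libraries. Aire itself measured 658 to 693 RPKM (mapped reads scaled to transcript length and library size) in WT mTEChi and 1001 to 1126 RPKM in KO mTEChi. A single value per gene does not separate a mutant transcript from an intact one, so the Aire level is no check of the genotype. Of 8 markers of cortical cells, 5 were lower and 2 higher in WT mTEChi than in WT cTEC by the test described below. Among all genes the shares were 31.8% and 46.6%. Psmb11, a cortical proteasome subunit, measured 11.3 to 21.8 RPKM in WT cTEC and at most 1.95 RPKM in WT mTEChi. Dll4 went the other way, at 3.38 to 6.10 and 14.4 to 16.1 RPKM, as did Foxn1, at 28.5 to 36.6 and 55.3 to 57.5 RPKM. KO cTEC libraries carried more medullary marker RNA than WT cTEC, and these values stand beside the cTEC results below. KO cTEC replicate 2 stood apart from its group for several members, among them Crct1, Sprr2g and Lce3c. Expression was tested with limma on log2(RPKM + 0.1), and a gene was called when its p-value, adjusted by Benjamini-Hochberg over 19451 genes, was below 0.05. All 41 members passed the filter of 0.1 RPKM in 3 libraries. Of these, 7 did so only through WT mTEChi (Sprr2k, Lce1i, Lce1k, Lce1l, Lce3a, Lce3b and Tchhl1) and therefore had to differ from the other groups.

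WT mTEChi was the only group of the 6 in which all 41 members reached 0.1 RPKM in every library. The count was 30, 29 and 30 in WT mTEClo and 6, 6 and 5 in WT cTEC. In the KO libraries it was 16, 20 and 19 in mTEChi, 26, 26 and 22 in mTEClo and 15, 27 and 15 in cTEC. KO mTEChi thus fell below KO mTEClo in this count, the reverse of the order in WT, and KO cTEC exceeded WT cTEC without overlap. The same count was not made over all genes, so these orders are not shown to be particular to the members. Among all genes tested, 43.7% were called lower in KO mTEChi than in KO mTEClo and 23.4% higher. Summed over the members, the level was 390 ± 21.5 RPKM (SD, n = 3) in WT mTEChi and 172 ± 17.6 RPKM (SD, n = 3) in KO mTEChi. It was 146 ± 27.2 RPKM (SD, n = 3) in WT mTEClo against 301 ± 44.7 RPKM (SD, n = 3) in KO mTEClo. In cTEC it was 23.0 ± 1.501 RPKM (SD, n = 3) in WT and 127 ± 34.7 RPKM (SD, n = 3) in KO. Sprr1a and Rptn alone supplied 50.4% to 85.6% of that sum across the 18 libraries. In these sorted bulk samples, fewer expressing cells and less RNA per cell cannot be told apart.

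**Figure D1:**
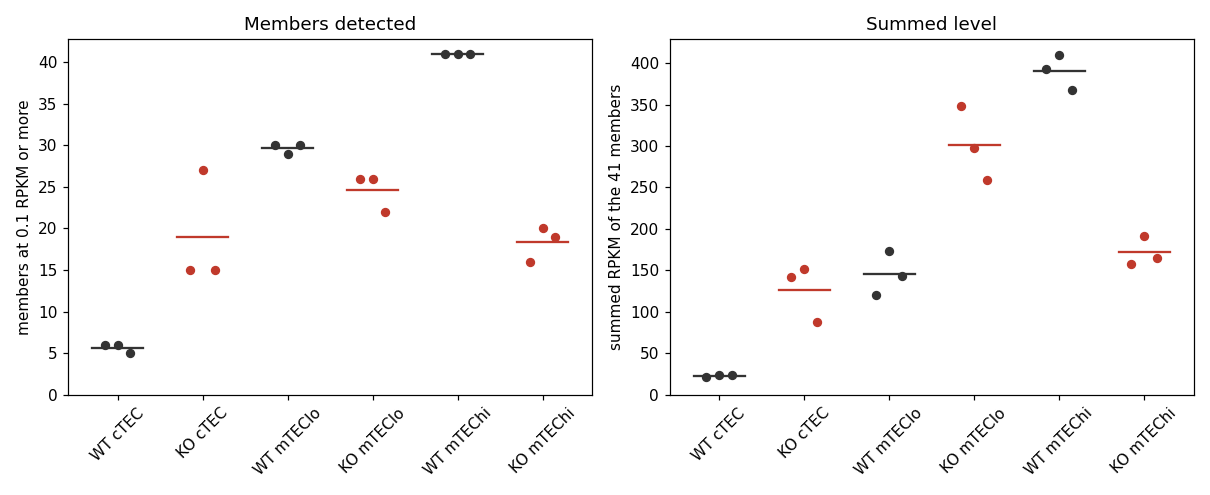
Members detected at 0.1 RPKM or more (left) and the summed RPKM of the 41 members (right) in each library; points are libraries, lines are group means, black is WT and red is KO. All 41 members were detected in the 3 WT mTEChi libraries, and the summed level of KO mTEClo (259 to 348 RPKM) lay above that of KO mTEChi (158 to 191 RPKM).

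**Figure D2:**
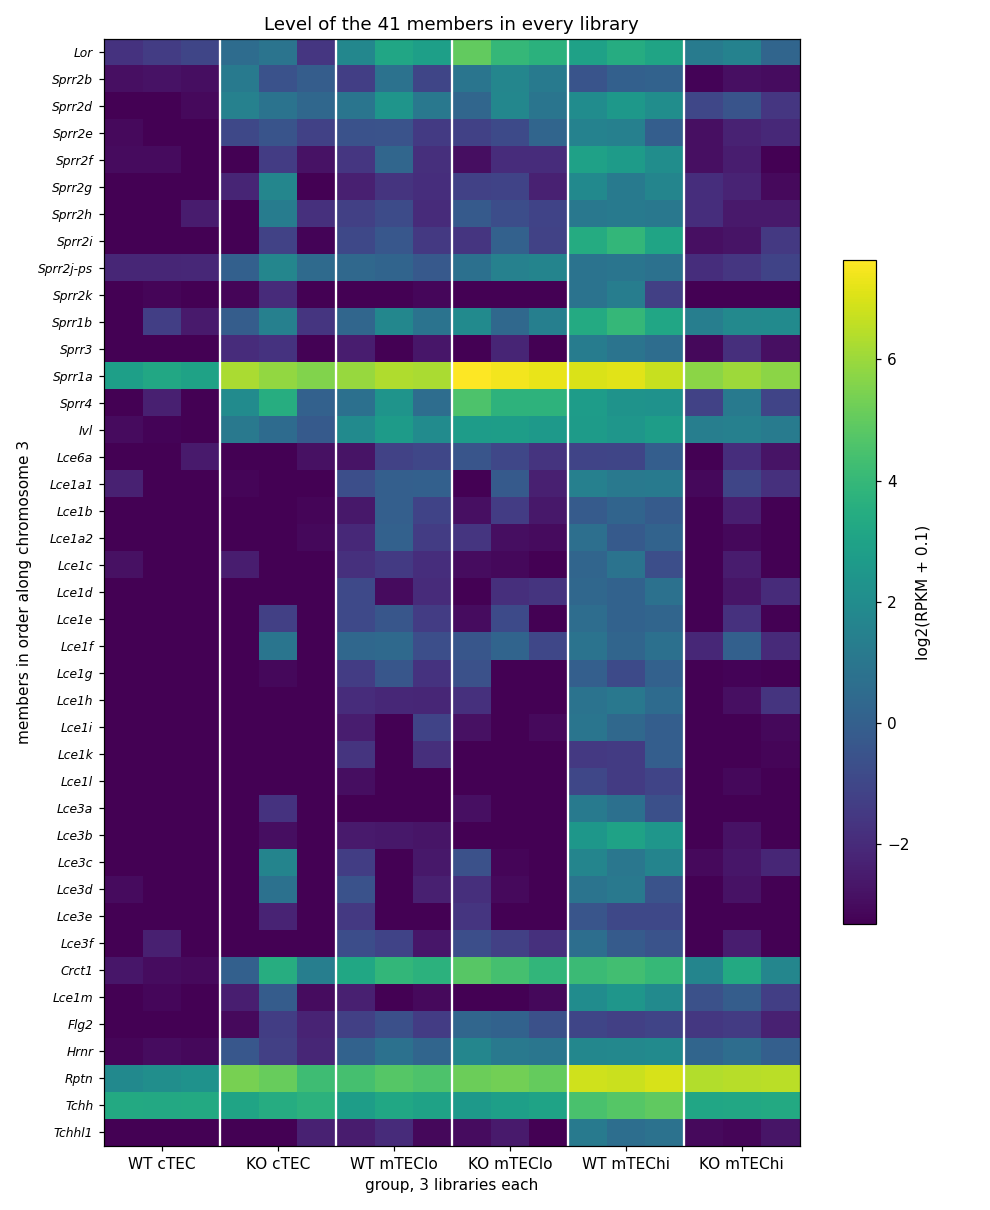
Level of the 41 members, as log2(RPKM + 0.1), in the 18 libraries; rows follow chromosome 3 and white lines separate the 6 groups. Sprr1a, Rptn and Tchh were present in all libraries, whereas the Lce rows were brightest in WT mTEChi.

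The SPRR proteins are short cross-bridging proteins of the envelope, and Sprr1a was the most abundant member by mean RPKM in 4 of the 6 groups, after Tchh in WT cTEC and Rptn in KO mTEChi. Sprr1a measured 7.19, 9.47 and 7.91 RPKM in WT cTEC, 75.1, 57.2 and 46.4 in KO cTEC, 60.9, 79.5 and 74.6 in WT mTEClo, 198, 175 and 156 in KO mTEClo, 130, 139 and 105 in WT mTEChi, and 52.9, 65.8 and 52.3 in KO mTEChi. Its highest group was KO mTEClo, with no overlap with any other group. Sprr4 showed the same highest group, at 23.6, 13.3 and 13.4 RPKM in KO mTEClo against 1.55, 5.03 and 1.41 in WT mTEClo. The other Sprr4 values were 6.54, 4.90 and 4.64 RPKM in WT mTEChi, 0.341, 2.19 and 0.373 in KO mTEChi, 3.75, 11.3 and 0.967 in KO cTEC, and 0, 0.0921 and 0 in WT cTEC. Sprr1b, the close relative of Sprr1a, peaked elsewhere. It reached 10.4, 15.4 and 8.86 RPKM in WT mTEChi, against 2.44, 3.43 and 3.65 in KO mTEChi, 1.13, 3.28 and 1.70 in WT mTEClo, 3.63, 1.21 and 2.57 in KO mTEClo, 0.838, 2.62 and 0.220 in KO cTEC, and 0, 0.313 and 0.0714 in WT cTEC. Sprr3, a SPRR protein of internal stratified epithelia, was above 1 RPKM only in the WT mTEChi libraries, at 2.32, 1.74 and 1.43 RPKM.

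The Sprr2 genes form a tandem array of near-identical copies, and 9 of them were in the tables, including the pseudogene Sprr2j-ps. How reads shared by such copies were assigned is not given in the sources used here, so the split between single Sprr2 genes, and between Lce genes, is uncertain. As a family their summed RPKM was 32.9 ± 7.07 (SD, n = 3) in WT mTEChi and 1.15 ± 0.148 (SD, n = 3) in KO mTEChi. The same sum was 6.66 ± 3.67 (SD, n = 3) in WT mTEClo, 8.94 ± 2.72 (SD, n = 3) in KO mTEClo, 7.54 ± 4.37 (SD, n = 3) in KO cTEC and 0.226 ± 0.0317 (SD, n = 3) in WT cTEC. WT mTEChi lay above all other groups, WT cTEC below all others and KO mTEChi, at 1.04 to 1.32, between WT cTEC and the remaining 3, which overlapped. In WT mTEChi, but in no other group, Sprr2i carried the largest share. It measured 10.5, 15.1 and 8.24 RPKM in WT mTEChi, 0.0370, 0.0514 and 0.248 in KO mTEChi, 0.417, 0.675 and 0.252 in WT mTEClo, 0.224, 0.966 and 0.349 in KO mTEClo, 0, 0.343 and 0.00727 in KO cTEC, and 0 in all 3 WT cTEC libraries. Sprr2f followed it in WT mTEChi, at 7.66, 6.31 and 4.09 RPKM, with 0.0380, 0.0823 and 0 in KO mTEChi, 0.237, 1.14 and 0.176 in WT mTEClo, 0.0322, 0.160 and 0.162 in KO mTEClo, 0, 0.283 and 0.0447 in KO cTEC, and 0.0236, 0.0235 and 0 in WT cTEC. Sprr2d was spread more widely. Its values were 3.96, 5.56 and 4.01 RPKM in WT mTEChi, 0.407, 0.628 and 0.236 in KO mTEChi, 1.83, 5.08 and 1.97 in WT mTEClo, 1.14, 3.25 and 1.83 in KO mTEClo, 2.67, 1.72 and 1.18 in KO cTEC, and 0, 0 and 0.0216 in WT cTEC. Sprr2b and Sprr2j-ps were highest in KO mTEClo, at 2.39 ± 0.729 and 2.41 ± 0.749 RPKM (SD, n = 3). Sprr2k was listed at 0 in all 3 KO mTEChi libraries and measured 1.73, 2.37 and 0.316 RPKM in WT mTEChi. The others, Sprr2e, Sprr2g and Sprr2h, were highest in WT mTEChi, with group means from 2.06 to 2.93 RPKM.

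The LCE proteins are incorporated late into the envelope, and all 20 Lce genes had their highest mean in WT mTEChi. Lce3b was the highest of them: 5.44, 7.74 and 5.34 RPKM in WT mTEChi, 0, 0.0450 and 0 in KO mTEChi, 0.0733, 0.0624 and 0.0549 in WT mTEClo, 0, 0.0309 and 0 in KO cTEC, and 0 in all 3 libraries of KO mTEClo and of WT cTEC. Lce1m came next, at 3.97, 5.29 and 3.73 RPKM in WT mTEChi and 0.563, 0.850 and 0.303 in KO mTEChi. Lce1m was the only Lce gene above 0.2 RPKM in all 3 KO mTEChi libraries. The 13 Lce1 genes together measured 18.1 RPKM in WT mTEChi, 4.39 in WT mTEClo, 1.79 in KO mTEClo, 1.46 in KO mTEChi, 1.08 in KO cTEC and 0.0522 in WT cTEC. For the 6 Lce3 genes the sums of means were 13.2, 0.797, 0.690, 0.125, 1.62 and 0.0394 RPKM in the same order. KO cTEC was second for Lce3 through replicate 2 alone, at 4.87 RPKM against 0 and 0 in the other libraries. Other Lce genes with a mean of at least 1 RPKM in WT mTEChi were Lce1a1, Lce1a2, Lce1c, Lce1d, Lce1e, Lce1f, Lce1h, Lce1i, Lce3a, Lce3c and Lce3d, with means from 1.09 to 2.66 RPKM.

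Involucrin (Ivl), loricrin (Lor) and Crct1, the cysteine-rich C-terminal protein 1 gene, did not have their maximum in WT mTEChi. Ivl measured 0.0261, 0.00745 and 0 RPKM in WT cTEC, 2.08, 1.32 and 0.748 in KO cTEC, 3.65, 6.37 and 3.82 in WT mTEClo, 6.54, 6.67 and 5.96 in KO mTEClo, 6.28, 5.26 and 6.77 in WT mTEChi, and 2.46, 2.66 and 2.28 in KO mTEChi. WT mTEClo, KO mTEClo and WT mTEChi overlapped, and KO mTEChi lay below all 3 of them. Lor, a glycine-rich protein that makes up much of the envelope in skin, measured 0.206, 0.283 and 0.392 RPKM in WT cTEC, 1.34, 1.74 and 0.235 in KO cTEC, 3.29, 8.90 and 7.26 in WT mTEClo, 31.6, 15.6 and 12.7 in KO mTEClo, 7.67, 10.8 and 8.24 in WT mTEChi, and 2.27, 2.78 and 1.09 in KO mTEChi. KO mTEClo stood above every other group. Crct1 measured 0.0599, 0.0297 and 0.0205 RPKM in WT cTEC, 0.925, 11.2 and 2.48 in KO cTEC, 9.19, 15.2 and 12.9 in WT mTEClo, 27.9, 21.1 and 14.9 in KO mTEClo, 17.6, 19.5 and 16.2 in WT mTEChi, and 3.11, 9.91 and 3.16 in KO mTEChi. KO mTEChi overlapped only with WT mTEClo and KO cTEC.

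Among the S100-fused genes, Rptn (repetin) and Tchh (trichohyalin, a protein of the inner root sheath of hair) were present in every library. Rptn measured 3.60, 4.20 and 4.73 RPKM in WT cTEC, 41.9, 34.2 and 18.7 in KO cTEC, 21.2, 26.8 and 24.0 in WT mTEClo, 35.9, 39.3 and 32.6 in KO mTEClo, 115, 110 and 126 in WT mTEChi, and 82.2, 88.8 and 89.2 in KO mTEChi. KO mTEChi was closer to WT mTEChi for Rptn than to either mTEClo group. Tchh measured 9.93, 9.58 and 9.92 RPKM in WT cTEC, 8.42, 10.9 and 13.01 in KO cTEC, 6.79, 9.16 and 7.75 in WT mTEClo, 5.74, 7.19 and 8.15 in KO mTEClo, 22.5, 26.6 and 31.3 in WT mTEChi, and 8.96, 9.49 and 9.83 in KO mTEChi. WT mTEChi stood alone for Tchh, and the other 5 groups lay between 5.74 and 13.01 RPKM. Hrnr (hornerin) was lower, at 3.26, 3.37 and 3.65 RPKM in WT mTEChi, 3.19, 2.04 and 1.84 in KO mTEClo and 1.10, 1.41 and 0.882 in KO mTEChi. Tchhl1 reached 2.15, 1.46 and 1.63 RPKM in WT mTEChi and at most 0.151 RPKM in any other library. Flg2 stayed below 1 RPKM in group mean everywhere, and its highest group was KO mTEClo.

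**Figure D3:**
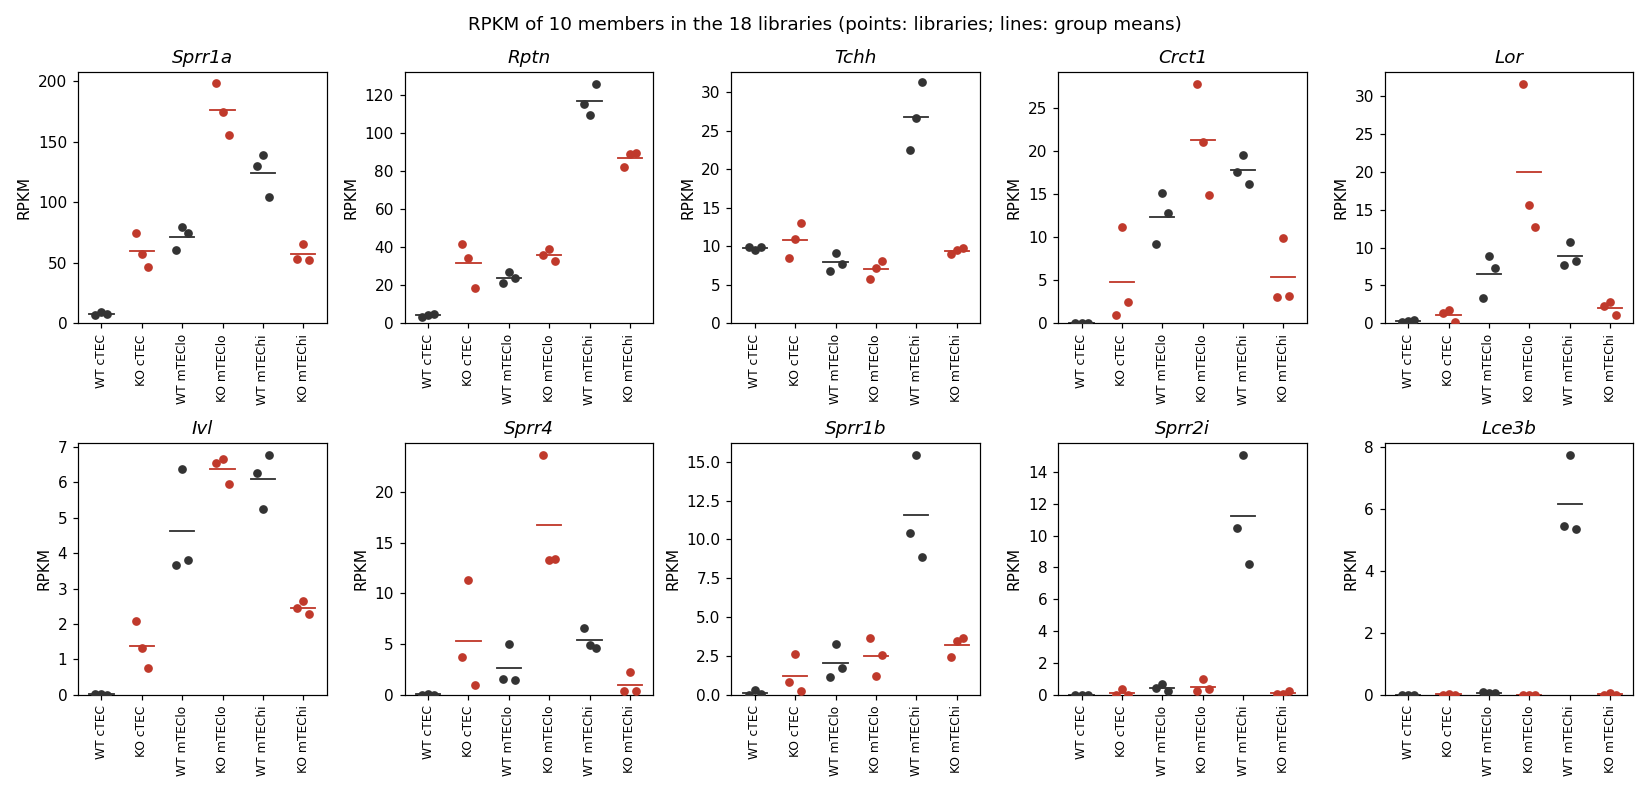
RPKM of 10 members in the 18 libraries (vertical axes start at 0 and differ between panels); points are libraries, lines are group means, black is WT and red is KO. Sprr1a, Lor and Sprr4 were highest in KO mTEClo, whereas Tchh, Sprr1b, Sprr2i and Lce3b were highest in WT mTEChi.

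The upstream sequences of the members with the highest levels that have an entry are shown (Crct1, which was above Lor, has none) because these genes share 1 cluster but peaked in different groups. They come from the RefSeq promoter table (build GRCm38.p6), which matched 37 of the 41 members by symbol, and each run is the 250 bases before the transcription start, 5′ to 3′ on the gene's strand. Capitals mark the word TATAAA, the TATA box, and TGAGTCA, the word bound by AP-1 factors, on either strand. Sprr1a (minus strand, chr3:92485882-92486131) and Lor (minus strand, chr3:92083143-92083392) peaked in KO mTEClo, and Rptn (plus strand, chr3:93393449-93393698) and Tchh (plus strand, chr3:93442080-93442329) in WT mTEChi. Ivl (minus strand, chr3:92573736-92573985), Sprr2i (plus strand, chr3:92407741-92407990) and Lce3b (plus strand, chr3:92932729-92932978) were added after their values were seen, to show the upstream region of involucrin and of the highest Sprr2 and Lce3 genes.
Sprr1a: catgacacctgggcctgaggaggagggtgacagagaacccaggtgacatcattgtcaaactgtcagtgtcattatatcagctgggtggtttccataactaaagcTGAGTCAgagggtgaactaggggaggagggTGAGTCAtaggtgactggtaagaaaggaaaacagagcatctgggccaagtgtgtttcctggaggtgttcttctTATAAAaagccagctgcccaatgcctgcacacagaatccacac
Lor: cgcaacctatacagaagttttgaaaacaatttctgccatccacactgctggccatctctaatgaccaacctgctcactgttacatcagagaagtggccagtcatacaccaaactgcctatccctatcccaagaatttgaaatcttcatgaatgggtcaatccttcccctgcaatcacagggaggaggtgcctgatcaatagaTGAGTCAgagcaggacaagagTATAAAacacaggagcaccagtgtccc
Ivl: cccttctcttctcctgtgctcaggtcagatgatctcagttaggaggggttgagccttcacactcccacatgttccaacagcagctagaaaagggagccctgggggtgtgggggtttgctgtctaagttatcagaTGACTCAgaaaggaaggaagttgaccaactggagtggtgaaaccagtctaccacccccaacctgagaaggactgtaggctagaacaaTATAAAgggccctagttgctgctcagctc
Rptn: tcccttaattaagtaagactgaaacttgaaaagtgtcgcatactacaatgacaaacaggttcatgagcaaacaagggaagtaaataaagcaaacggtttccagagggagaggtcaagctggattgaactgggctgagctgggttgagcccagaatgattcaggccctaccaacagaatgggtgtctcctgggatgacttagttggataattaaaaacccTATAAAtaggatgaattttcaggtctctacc
Tchh: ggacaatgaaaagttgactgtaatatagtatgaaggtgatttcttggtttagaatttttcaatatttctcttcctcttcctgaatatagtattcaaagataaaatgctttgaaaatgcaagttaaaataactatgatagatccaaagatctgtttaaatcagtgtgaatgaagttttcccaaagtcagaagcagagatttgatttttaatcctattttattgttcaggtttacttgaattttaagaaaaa
Sprr2i: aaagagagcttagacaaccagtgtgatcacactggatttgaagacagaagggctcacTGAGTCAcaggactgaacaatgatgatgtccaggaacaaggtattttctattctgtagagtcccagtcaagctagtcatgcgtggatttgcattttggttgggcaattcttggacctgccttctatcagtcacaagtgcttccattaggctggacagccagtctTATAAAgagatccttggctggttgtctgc
Lce3b: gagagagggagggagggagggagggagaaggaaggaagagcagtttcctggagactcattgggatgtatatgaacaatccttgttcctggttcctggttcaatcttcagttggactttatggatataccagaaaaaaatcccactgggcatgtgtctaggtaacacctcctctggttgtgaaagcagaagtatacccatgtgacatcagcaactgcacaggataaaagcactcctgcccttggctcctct

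The words were searched on both strands of these 250 bases and do not overlap one another. TATAAA was held by 18 of the 37 members (48.65%) and by 12.37% of the 32851 promoters of the table. An AP-1 word was held by 10 of 37 (27.03%), against 4.463% of all promoters, and CCACCC, the word read by Krüppel-like factors, by 8 of 37 (21.62%), against 28.08%. All 7 Sprr2 promoters in the table held both TATAAA, 29 to 24 bases before the start, and an AP-1 word. Ivl and Lor also held both, with the AP-1 word 116 to 110 bases before the start in Ivl and 48 to 42 bases before it in Lor. Sprr1a held TATAAA 43 to 38 bases and AP-1 words 146 to 140 and 116 to 110 bases before its start. Of the 12 Lce1 promoters 2 held TATAAA and none an AP-1 word, and of the 6 Lce3 promoters 1 held TATAAA and none an AP-1 word. Rptn held TATAAA 31 to 26 bases before the start, and Tchh and Lce3b held neither word. A match is a description of the letters only, and tandem copies share their sequence.

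**Figure D4:**
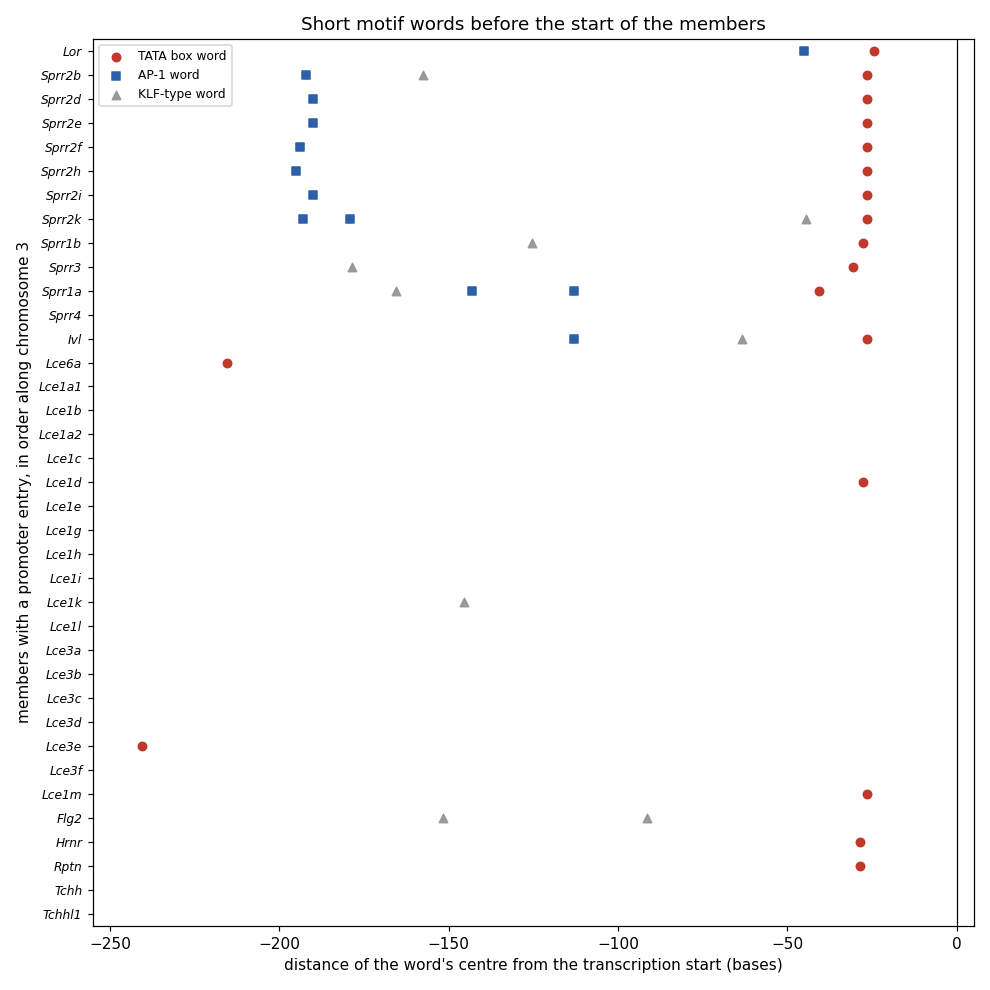
Position of the 3 motif words in the 250 bases before the start of the 37 members in the promoter table; the horizontal axis is the distance in bases, and rows follow chromosome 3. The Sprr2 rows carry a TATA box word and an AP-1 word at nearly fixed distances, and most Lce rows carry no word.

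The main comparison made here was KO against WT in mTEChi. In KO mTEChi 38 of the 41 members fell against WT mTEChi and none rose (39 lower and 0 higher at an unadjusted p below 0.05; limma). Among all genes tested, 52.8% were called lower and 9.57% higher, so lower calls were common in these libraries. The members' median log2 fold change was -3.03, against -0.39 over all genes tested, and it was -4.70 with a pseudocount of 0.01, -1.20 with a pseudocount of 1 and -1.67 after quantile normalization. All 3 KO libraries lay below all 3 WT libraries for each of the 41 members, which was true of 60.1% of all genes tested. For the 7 members that passed the filter only through WT mTEChi, this separation was favoured by the filter. It also held for all 34 members that passed the filter outside WT mTEChi, and 31 of these were called lower. The medians here include those 7 members, and also members listed at 0 in a group, whose fitted changes depend on the pseudocount.

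All 13 SPRR genes fell, Sprr2k among them, which passed the filter only through WT mTEChi. Among Sprr2 genes the fitted log2 change was -5.83 ± 0.55 (SE; limma, adjusted p = 1.75e-07) for Sprr2i and -5.45 ± 0.53 (SE) for Sprr2f, and it was -2.38 ± 0.35 (SE) for Sprr2j-ps, the smallest of the 9. The abundant Sprr1a fell by 1.12 ± 0.17 (SE; adjusted p = 2.70e-05) on the log2 scale, and Sprr4 fell by 2.79 ± 0.74 (SE). Among LCE genes 12 of 13 Lce1, 6 of 6 Lce3 and Lce6a fell. Leaving aside Lce1i, Lce1k, Lce1l, Lce3a and Lce3b, which had to differ because only WT mTEChi carried them through the filter, the counts were 9 of 10 Lce1 and 4 of 4 Lce3 genes. Lce1m fell by 2.79 ± 0.52 (SE) and Lce1h by 3.44 ± 0.38 (SE). Lce1f, at -1.98 ± 0.86 (SE), did not pass the test (adjusted p = 0.0564), although it did without KO mTEChi replicate 2, the library with 0.915 RPKM (-2.67, adjusted p = 0.0200). Ivl fell by 1.27 ± 0.27 (SE), Lor by 2.14 ± 0.55 (SE) and Crct1 by 1.92 ± 0.61 (SE; adjusted p = 0.0127). The call for Crct1 was lost without KO mTEChi replicate 1 and without replicate 3, and that for Sprr1b (-1.81 ± 0.66, SE) without WT mTEChi replicate 2 or KO mTEChi replicate 1. Among the S100-fused genes Tchhl1, also carried by WT mTEChi alone, fell by 3.83 ± 0.30 (SE), Hrnr by 1.54 ± 0.35 (SE) and Tchh by 1.49 ± 0.16 (SE). Rptn, at -0.43 ± 0.20 (SE; adjusted p = 0.0779), and Flg2, at -0.63 ± 0.37 (SE; adjusted p = 0.146), were not called. A fit of the 2 mTEChi groups alone called Rptn lower (adjusted p = 0.000685).

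The median over all genes tested moved from -0.39 to 0.08 when the libraries were quantile normalized, and the share of genes called then became 24.7% lower and 31.2% higher. Under that scaling 34 members were called lower, and Flg2 alone was called higher (1.14, adjusted p = 0.00752). Among markers of other cells, 7 of 10 dendritic cell and macrophage genes, 5 of 7 fibroblast genes, 5 of 10 thymocyte genes and 3 of 6 B cell genes were called lower, beside 52.8% of all genes. The summed RPKM of those lists in WT and KO mTEChi was 353 to 380 and 371 to 399 for the first, 36.4 to 41.8 and 30.9 to 40.5 for the second, 41.01 to 66.3 and 15.2 to 28.6 for the third, and 24.0 to 26.2 and 24.2 to 25.4 for the fourth. Lyz2 made up most of the first sum, at a mean of 321 RPKM in WT and 349 RPKM in KO, and the defining macrophage gene Emr1 had means of 4.998 and 0.198 RPKM. Of 6 endothelial genes 3 were called lower, with sums of 18.02 to 23.5 and 6.76 to 10.5 RPKM. Their part in the members' change was not tested.

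**Figure D5:**
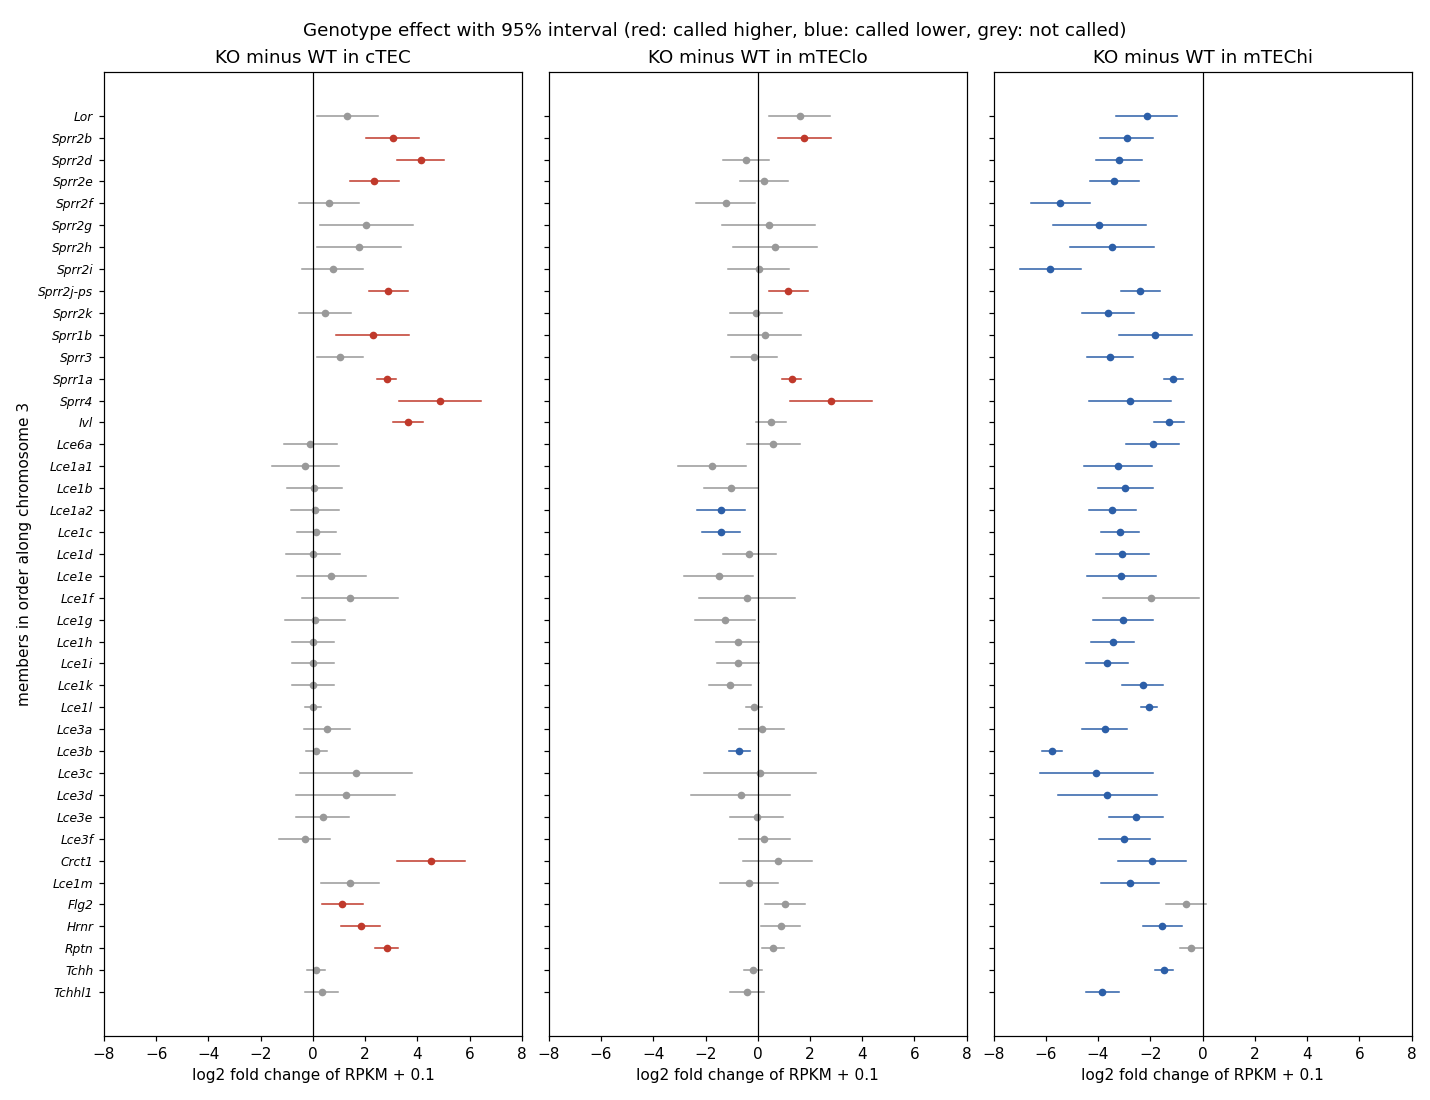
Log2 fold change of RPKM + 0.1, KO minus WT, for the 41 members in cTEC, mTEClo and mTEChi, with 95% confidence intervals from limma; red was called higher, blue lower and grey not called. In mTEChi 38 members were called lower, in mTEClo 3 lower and 4 higher, and in cTEC 12 higher.

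In mTEClo the genotype went with changes in both directions. The members called higher in KO were 4 SPRR genes: Sprr1a (1.30 ± 0.17, SE; limma, adjusted p = 0.000184), Sprr4 (2.80 ± 0.74, SE), Sprr2b (1.78 ± 0.47, SE) and Sprr2j-ps (1.17 ± 0.35, SE). Those called lower were 3 LCE genes, Lce1a2 (-1.40 ± 0.43, SE), Lce1c (-1.41 ± 0.35, SE) and Lce3b, which was listed at 0 in all 3 KO mTEClo libraries. Lce3b, which passed the filter only through WT mTEChi, was below 0.1 RPKM in WT mTEClo too, at 0.0733, 0.0624 and 0.0549. With a pseudocount of 1 all 3 of these calls were lost. Among all genes tested 7.93% were called higher and 8.04% lower, and the members' counts of 4 and 3 of 41 lay near those shares. The KO libraries lay wholly above WT for 8 members and wholly below for 3, against 17.2% and 22.6% of all genes. The members' median was -0.06 and that of all genes -0.04. All 13 Lce1 estimates were negative, from -1.77 to -0.13, although 11 of them did not pass the test. Lor, at 1.61 ± 0.55 (SE; adjusted p = 0.0579), Rptn, at 0.58 ± 0.20 (SE), and Hrnr, at 0.88 ± 0.35 (SE), did not pass it either, and neither did Ivl (0.51 ± 0.27, SE) or Crct1 (0.76 ± 0.61, SE). The 4 higher calls became 1 without WT mTEClo replicate 1 or replicate 3 and 2 without KO mTEClo replicate 2, and Sprr1a was called in each case. The call for Lce3b was lost without WT mTEClo replicate 1 or KO mTEClo replicate 1 or 2, and that for Lce1a2 without replicate 2 or 3 of either group. A fit of the 2 mTEClo groups alone called 8 members higher and 1 lower. Markers of other cells differed in the same comparison: the dendritic cell and macrophage list summed to 36.6 to 45.3 RPKM in WT and 86.1 to 154 RPKM in KO, with 2 of 10 genes called higher and 0 lower, and the B cell list to 9.74 to 17.8 and 28.8 to 32.3 RPKM, with 1 of 6 called higher and 0 lower. The median log2 changes of these lists were 0.52 and 0.001, in that order. Among medullary markers 2 of 11 were called higher and 2 lower. Cldn4 measured 42.7 to 54.6 RPKM in WT and 86.2 to 93.1 in KO mTEClo, and Aire 7.75 to 12.8 and 16.3 to 33.1 RPKM. Krt5 went the other way, at 1636 to 2055 and 1310 to 1412 RPKM, and the medullary list summed to 4248 to 5062 and 3544 to 3841 RPKM. Their part in the members' change was not tested.

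In cTEC, where WT levels were lowest, 12 members rose in KO and none fell (17 higher and 0 lower at an unadjusted p below 0.05; limma), against 13.3% of all genes called higher and 6.76% lower. They were the SPRR genes Sprr4 (4.86 ± 0.74, SE), Sprr2d (4.12 ± 0.42, SE), Sprr2b (3.05 ± 0.47, SE), Sprr2j-ps (2.87 ± 0.35, SE), Sprr1a (2.83 ± 0.17, SE; adjusted p = 7.50e-08), Sprr2e (2.35 ± 0.44, SE) and Sprr1b (2.28 ± 0.66, SE), together with Crct1 (4.51 ± 0.61, SE), Ivl (3.64 ± 0.27, SE), Rptn (2.82 ± 0.20, SE), Hrnr (1.83 ± 0.35, SE) and Flg2, which was listed at 0 in WT cTEC. Of the 20 Lce genes 0 were called: at an unadjusted p below 0.05, 1 of 13 Lce1 genes and 0 of 6 Lce3 genes were higher (limma). Lce1d, Lce1h, Lce1i, Lce1k and Lce1l were listed at 0 in every cTEC library, so their tests could not give a call. The summed Lce1 level was 0.181, 2.99 and 0.058 RPKM in KO cTEC, so most Lce genes were near the floor and their response is not known. The call for Sprr1b was lost without WT cTEC replicate 1 or 3 and without KO cTEC replicate 1 or 2. With a pseudocount of 1 the calls for Sprr2e, Sprr1b and Hrnr were lost. Those for Sprr1b and Hrnr were also lost in a fit of the cTEC groups alone. Lor had a mean of 0.293 ± 0.0936 RPKM in WT and 1.11 ± 0.781 RPKM in KO (SD, n = 3) and did not pass the test (adjusted p = 0.105). Tchh measured 9.81 ± 0.200 RPKM (SD, n = 3) in WT and 10.8 ± 2.30 RPKM (SD, n = 3) in KO (0.11 ± 0.16, SE). The members' median log2 change was 0.75, against -0.01 over all genes, and it was 1.69 with a pseudocount of 0.01, 0.15 with a pseudocount of 1 and 1.71 with a filter of 1 RPKM.

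KO cTEC replicate 2 held 11.2 RPKM of Crct1, 3.15 of Sprr2g, 2.36 of Sprr2h, 2.94 of Lce3c, 1.84 of Lce1f and 1.58 of Lce3d, and the other 2 KO cTEC libraries held at most 2.48, 0.117, 0.188, 0, 0 and 0 RPKM of these genes. Without this library 10 members were called higher, and without KO cTEC replicate 3, the lowest for Sprr1a, Ivl and Rptn, 15 were. Medullary markers rose in the same comparison: 6 of the 11 tested were called higher in KO cTEC and 0 lower (limma). Aire measured 2.09, 3.95 and 7.39 RPKM in WT cTEC and 95.6, 35.9 and 27.0 in KO cTEC. Cldn4, a claudin of mTEC, measured 8.40, 12.4 and 10.7 RPKM in WT cTEC and 93.7, 45.01 and 54.8 in KO cTEC. Fezf2, Cd80, Tnfrsf11a and Cldn3 were the other 4. The list summed to 3047 to 3311 RPKM in WT cTEC and 3554 to 3694 RPKM in KO cTEC, mostly H2-Aa and Krt5, and none of its measured genes was at 0. KO cTEC replicate 1, with the most Aire, was also highest for Sprr1a, Ivl and Rptn and lowest of the 3 for Crct1. The dendritic cell and macrophage list summed to 29.9 to 73.8 RPKM in WT cTEC and 121 to 160 RPKM in KO cTEC, with 2 of 10 genes called higher, and the B cell list to 2.43 to 4.76 and 10.2 to 25.3 RPKM, with 1 of 6 called higher. The median log2 changes of these lists were 0.48 and 0.18, in that order. The part of these cells in the cTEC result was not tested. Of the 8 cortical markers, 0 were called in either direction.

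The genotype effect itself differed between the medullary populations. The effect in mTEChi minus that in mTEClo was called negative for 34 members and positive for none (38 and 0 at an unadjusted p below 0.05; limma), against 40.9% and 6.01% of all genes. Without the 7 members carried through the filter by WT mTEChi alone, of which 6 were called, 28 of 34 were negative. Sprr1a fell in KO mTEChi and rose in KO mTEClo, a difference of -2.42 ± 0.24 (SE; adjusted p = 7.55e-07) on the log2 scale. The same opposite calls held for Sprr4, at -5.58 ± 1.05 (SE), Sprr2b, at -4.69 ± 0.67 (SE), and Sprr2j-ps, at -3.55 ± 0.50 (SE). However, the higher calls of Sprr4, Sprr2b and Sprr2j-ps in KO mTEClo were lost without WT mTEClo replicate 1 or 3, whereas that of Sprr1a was kept. Lor (-3.75 ± 0.78, SE), Crct1 (-2.68 ± 0.87, SE), Ivl (-1.77 ± 0.38, SE) and Rptn (-1.01 ± 0.29, SE) also differed, and for Crct1 the call was lost without KO mTEChi replicate 1. Sprr1b, Lce1a1, Lce1e, Lce1f, Lce1g, Lce1k and Lce3d were not called. Quantile normalization left 22 calls, turned Flg2 from -1.67 to 0.21, no longer called, and moved the median of all genes from -0.39 to 0.08.

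Within WT, 29 members were higher in mTEChi than in mTEClo and none lower (29 and 0 at an unadjusted p below 0.05; limma), against 41.6% of all genes called higher and 31.1% lower. Without the 7 members carried through the filter by WT mTEChi alone, which were all called, 22 of 34 were higher. For 30 members, those 7 among them, the mTEChi libraries all lay above the mTEClo libraries, as for 44.1% of all genes. The S100-fused genes Rptn (2.28 ± 0.20, SE), Tchh (1.75 ± 0.16, SE), Hrnr (1.44 ± 0.35, SE) and Tchhl1 were among them, as were 6 of 9 Sprr2, 10 of 13 Lce1 and 6 of 6 Lce3 genes. Lce1m had a log2 difference of 5.05 ± 0.52 (SE), Sprr2i of 4.40 ± 0.55 (SE) and Sprr1a of 0.80 ± 0.17 (SE). Ivl (0.43 ± 0.27, SE; interval -0.14 to 1.01), Lor (0.55 ± 0.55, SE; interval -0.62 to 1.72) and Crct1 (0.54 ± 0.61, SE; interval -0.76 to 1.85) did not pass the test, where the intervals are 95% intervals of the log2 difference. Quantile normalization, which moved the median of all genes from 0.12 to -0.13, called 17 members higher and 2 lower, and all genes 29.6% higher and 39.3% lower. It turned the sign of 4 members called here, Lce1a2 (1.33 to -0.23), Lce1b (1.201 to -0.46), Lce1k (1.29 to -0.43) and Lce3f (1.47 to -0.16), none of them then called, and called Sprr2b lower (0.40 to -1.26, adjusted p = 0.0143).

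Within KO, 14 of the 41 members were lower in mTEChi than in mTEClo and 3 were higher. As shares both counts lay below those of all genes, 43.7% and 23.4%. The mTEChi libraries lay wholly below the mTEClo libraries for 15 members and wholly above for 3, against 47.8% and 26.7% of all genes. The lower ones were Sprr4 (-4.37 ± 0.74, SE), Sprr2b (-4.29 ± 0.47, SE), Lor (-3.20 ± 0.55, SE), Sprr2j-ps (-2.80 ± 0.35, SE), Crct1 (-2.14 ± 0.61, SE), Sprr2d (-2.01 ± 0.42, SE), Sprr2e (-1.80 ± 0.44, SE), Lce3f, Flg2, Sprr1a (-1.63 ± 0.17, SE), Lce6a, Sprr2i, Ivl (-1.34 ± 0.27, SE) and Hrnr. Lce1m (2.58 ± 0.52, SE), Rptn (1.27 ± 0.20, SE) and Tchh (0.43 ± 0.16, SE) were higher. The call for Tchh was lost without KO mTEClo replicate 1 or KO mTEChi replicate 2 or 3, that for Hrnr (-0.98 ± 0.35, SE) without KO mTEClo replicate 1 or KO mTEChi replicate 3, and that for Sprr2i (-1.48 ± 0.55, SE) without KO mTEClo replicate 2 or KO mTEChi replicate 1 or 2. This comparison shares its libraries with both KO comparisons above.

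Against WT cTEC, all 41 members were higher in WT mTEChi and 30 in WT mTEClo (limma), where 46.6% and 24.6% of all genes were called higher. The 7 members carried through the filter by WT mTEChi alone had to be higher there. Without them, all 34 were higher in WT mTEChi and 26 in WT mTEClo. No member was lower in either (0 and 0 at an unadjusted p below 0.05), against 31.8% and 18.2% of all genes called lower. Of the members, 19 were listed at 0 in all 3 WT cTEC libraries. Among those measured above 0, Crct1 differed by 7.04 ± 0.61 (SE) and Ivl by 5.80 ± 0.27 (SE) between mTEChi and cTEC, and by 6.50 ± 0.61 (SE) and 5.37 ± 0.27 (SE) between mTEClo and cTEC. In WT mTEClo 11 members were not called, and Tchh alone had a negative estimate, at -0.32 ± 0.16 (SE; limma, adjusted p = 0.123). With the replicate number as a block Tchh was called lower (adjusted p = 0.0364).

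Genes of the same epidermal programme outside the cluster were followed with lists taken from textbook knowledge, but chosen with earlier results of these data known. Of 18 other proteins of the cornified layer, 14 fell in KO mTEChi and 0 rose, beside 52.8% and 9.57% of all genes. The 3 with the smallest adjusted p were Krt2, an upper-layer keratin (3.16 ± 0.570 to 0.149 ± 0.102 RPKM, SD, n = 3), Casp14, a protease of cornifying cells (4.56 ± 1.44 to 0.120 ± 0.0627 RPKM, SD, n = 3), and Krt10, a suprabasal keratin (95.4 ± 3.99 to 21.4 ± 0.983 RPKM, SD, n = 3). Of 3 transglutaminases only Tgm1, the keratinocyte enzyme that cross-links the envelope, fell (-0.99 ± 0.20, SE). Among 11 enzymes of barrier lipid synthesis 9 fell and 1 rose, with Alox12b (-3.28 ± 0.20, SE), Cers3 and Elovl4 first by adjusted p. Of 24 regulators of epidermal differentiation 9 fell, among them Hopx (-2.35 ± 0.20, SE) and Hes1, and 1 rose, a smaller share lower than among all genes. In KO mTEClo 5 cornified-layer genes rose (Sbsn, Dmkn, Spink5, Calml3 and Dsc1) and 2 fell (Krt1 and Krt10). In KO cTEC 10 of 18 cornified-layer genes, 8 of 11 lipid enzymes and 2 of 3 transglutaminases rose and 0 fell, and among regulators 8 rose and 1 fell. The medians of these 4 lists in KO mTEChi were -1.24, -0.44, -1.31 and -0.27, in the order cornified layer, transglutaminases, lipid enzymes and regulators, beside -0.39 for all genes. The transglutaminases lay near the median of all genes and the regulators above it.

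Of 20 further genes of the chromosome 3 locus, many of them S100 genes, 10 fell and 7 rose in KO mTEChi, a share of lower calls near the 52.8% of all genes. S100a9, a calcium-binding protein of inflamed skin and myeloid cells, went from 116 to 3.46 RPKM in mean (-5.08 ± 0.35, SE), S100a7a fell by 3.29 ± 0.27 (SE), and S100a6 rose by 1.56 ± 0.13 (SE). Inside the member span stood 8 other rows, and Kprp, Smcp, Lelp1 and Crnn among them also belong to the 20 genes above. Of the 8 rows, 7 were tested. Of these 6 fell in KO mTEChi: Prr9, a proline-rich gene between Lor and the Sprr2 array, went from 5.001 ± 0.613 to 0.00335 ± 0.00580 RPKM (SD, n = 3), and Gm4858, Kprp, Smcp, Lelp1 and 2310050C09Rik were the others. Prr9, Smcp and Lelp1 passed the filter only through WT mTEChi and therefore had to differ. Crnn (cornulin), an S100-fused gene that lies between Lce1m and Flg2, was not called, at 15.9 ± 1.799 RPKM (SD, n = 3) in WT and 14.7 ± 1.68 RPKM (SD, n = 3) in KO (-0.11 ± 0.16, SE; adjusted p = 0.588). In KO mTEClo Crnn rose from 2.74 ± 0.477 to 10.1 ± 1.45 RPKM (SD, n = 3; 1.85 ± 0.16, SE), and in KO cTEC from 0.389 ± 0.0718 to 5.44 ± 0.958 RPKM (SD, n = 3; 3.50 ± 0.16, SE).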

How the data were processed

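RNA of 18 sorted libraries was measured by RNA-seq. The authors deposited 1 table per library with RPKM per gene, and with the bases aligned per gene, a coverage signal that was summed here as depth. Alignment used CASAVA 1.8.2 and the mm10 build, per the submitters' processing notes; the handling of reads shared between copies is not given in the sources used here. RPKM are not counts, so no count model was used. Values were analysed as log2(RPKM + 0.1) for the 19451 genes with at least 0.1 RPKM in 3 libraries. Limma 3.58.1 in R 4.3.3 fitted the 6 group means with a trended variance, and p-values were adjusted by Benjamini-Hochberg over all genes of a comparison, with a threshold of 0.05. Fold changes on this scale understate changes of low genes. Steps were tested on simulated data. Members with a group mean of at least 1 RPKM (33) were to be named. The rule for the members uses gene symbols and no expression value, but the rule and the lists were chosen with earlier results of these data known. Groups share replicate numbers, but of 21 pair correlations of deviations, from -0.303 to 0.168, only 5 were over 0.1. In WT mTEClo against WT cTEC all 3 were, without a label that pairs them. Alternatives were other pseudocounts, filters and scalings, a fit of the compared groups alone, a replicate block and leaving out each library.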

Additional observations from a re-analysis of the deposited data

Results flagged for a closer look

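For 28 members with a group mean of at least 1 RPKM, the KO minus WT difference in mTEChi differed from that in mTEClo by the test of the difference itself (limma, adjusted p below 0.05). All 28 values were negative on the log2(RPKM + 0.1) scale, where 40.9% of all genes were called negative and 6.01% positive. Sprr2k, Lce1i, Lce3a, Lce3b and Tchhl1 passed the filter only through WT mTEChi, so their difference was favoured by the filter. Among SPRR genes the difference was -2.42 for Sprr1a, -3.39 for Sprr3, -5.58 for Sprr4, -4.69 for Sprr2b, -2.74 for Sprr2d, -3.61 for Sprr2e, -4.22 for Sprr2f, -4.38 for Sprr2g, -4.13 for Sprr2h, -5.88 for Sprr2i, -3.55 for Sprr2j-ps and -3.56 for Sprr2k. Among LCE genes it was -2.05 for Lce1a2, -1.76 for Lce1c, -2.74 for Lce1d, -2.67 for Lce1h, -2.90 for Lce1i, -2.46 for Lce1m, -3.89 for Lce3a, -5.06 for Lce3b and -4.14 for Lce3c. It was -1.77 for Ivl, -3.75 for Lor and -2.68 for Crct1, and -2.42 for Hrnr, -1.01 for Rptn, -1.32 for Tchh and -3.42 for Tchhl1. The values of Sprr2k, Lce3a and Lce3b depend on the pseudocount, because at least 1 group was listed at 0 in all 3 libraries, although their calls were kept under every alternative. With a pseudocount of 0.01 the calls for Sprr3, Lce1c, Lce1d, Lce1h, Lce1m and Lce3c were lost. Quantile normalization lost those for Lce1a2, Lce1c, Lce1d, Lce1h, Lce1i and Lce3c. The call for Lce3c was lost without WT mTEClo replicate 2 or 3, KO mTEClo replicate 1, WT mTEChi replicate 1 or 3, or KO mTEChi replicate 1.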

How the results depend on the processing

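Counts of members called moved by over 1.5 times in these cases. With a filter of 1 RPKM, which tests fewer members, KO minus WT in mTEChi gave 24 lower calls (38 in the report), in mTEClo 1 lower (3), WT mTEChi minus WT mTEClo 18 higher (29), WT mTEChi minus WT cTEC 26 higher (41), WT mTEClo minus WT cTEC 19 higher (30) and the difference of genotype effects 22 lower (34). Quantile normalization gave 1 higher call in KO mTEChi (0), 17 higher and 2 lower in WT mTEChi minus WT mTEClo, and 22 lower for the difference of genotype effects. In mTEClo a pseudocount of 1 gave 1 lower call, of a member other than Lce1a2, Lce1c and Lce3b, and 7 higher calls. The fit of the compared groups alone gave 1 lower and 8 higher, and the cause was not tested. With the replicate number as a block, WT mTEClo minus WT cTEC gave 1 lower call and 29 higher, KO minus WT in mTEChi 39 lower, and Lce1a2 was no longer called in KO mTEClo.

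Leaving out 1 library at a time gave 35 to 39 lower calls in KO mTEChi, 2 to 4 lower and 1 to 4 higher in KO mTEClo, 10 to 15 higher in KO cTEC, 23 to 30 higher in WT mTEChi minus WT mTEClo, 39 to 41 and 24 to 27 higher against WT cTEC, 13 to 14 lower and 2 to 3 higher in KO mTEChi minus KO mTEClo, and 31 to 35 lower for the difference of genotype effects. Under quantile normalization the direction turned for 4 called members in WT mTEChi minus WT mTEClo, Lce1a2 (-0.23), Lce1b (-0.46), Lce1k (-0.43) and Lce3f (-0.16), and for Flg2 in KO mTEChi (1.14) and in the difference of genotype effects (0.21). Sprr2b, not called in WT mTEChi minus WT mTEClo, was then called lower (-1.26). It also turned for Tchh in cTEC without KO cTEC replicate 3, where leaving out single libraries gave -0.0302 to 0.28. For the 33 members with a group mean of at least 1 RPKM, of 2526 values of called comparisons under the alternatives, 2400 kept direction and call, 125 lost the call and 1 turned. Among these members 1 of 7 calls in KO mTEClo, that of Sprr1a, was kept under every alternative run, as were 8 of 11 in KO cTEC and 29 of 31 in KO mTEChi. Of the other 7 calls in KO mTEChi, those of Lce6a, Lce1k, Lce1l and Lce3e were lost under quantile normalization.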
